A study of Mus musculus with 4 samples.

Results

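The 48 genes described here encode the proteins that license replication origins, unwind and copy DNA, and supply its nucleotides. They were chosen by name and function, from origin licensing to chromatin assembly behind the fork, and all 48 were found among the 30282 genes of the deposited table. The cells were V6.5 mouse embryonic stem cells whose RPB3 carries a minimal auxin-inducible degron and GFP (dRPB3-mAID-GFP). The gene for RPB3 is Polr2c, and the protein belongs to the core of RNA polymerase II. In the IAA group (2 libraries) doxycycline at 1 µg/ml for 12 h, which induces the plant F-box protein TIR1, was followed by the auxin IAA at 500 µM for 12 h, so that the tagged protein is degraded. The untreated group (2 libraries) had doxycycline alone. Another sentence of the labels speaks of 1 h of depletion, and the 12 h given with the samples is the time used. Both groups thus carry the tag and induced TIR1, and both grew in medium with a nucleoside supplement and inhibitors of GSK3 and MEK. No library with IAA and no degron was analysed here, so depletion of RPB3 and exposure to IAA cannot be told apart, and the labels do not say whether the line is 1 clone.

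In G1 phase the origin recognition complex, Cdc6 and Cdt1 load the MCM2-7 helicase onto DNA, and geminin later blocks reloading. Cdc45 and the GINS complex then turn the helicase on, primase with polymerase alpha starts each strand, and polymerases epsilon and delta extend the strands on the PCNA ring. Deoxynucleotides come from ribonucleotide reductase, thymidylate synthase and salvage kinases such as Tk1. Embryonic stem cells spend much of their short cycle in S phase, and E2F factors are classic regulators of these genes.

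Because E2F sites mark many promoters of this pathway, the promoters of the called genes at both ends of the response are shown first. Each window runs from 250 bases before to 50 bases after the start site in RefSeq (GRCm38.p6) and is written in the direction of the gene. Capitals mark the E2F forms TTTCCCGC or TTTGGCGC on either strand and the CCAAT box on either strand. A CCAAT box can share an end base with an E2F form. Tk1, Orc3 and Pold1 had the most negative log2 fold changes, and Rfc4 was the 1 gene called higher. The windows lie on the minus strand at chr11:117825965-117826264 (Tk1), chr4:34614893-34615192 (Orc3), chr7:44548766-44549065 (Pold1) and chr16:23127681-23127980 (Rfc4).
Tk1: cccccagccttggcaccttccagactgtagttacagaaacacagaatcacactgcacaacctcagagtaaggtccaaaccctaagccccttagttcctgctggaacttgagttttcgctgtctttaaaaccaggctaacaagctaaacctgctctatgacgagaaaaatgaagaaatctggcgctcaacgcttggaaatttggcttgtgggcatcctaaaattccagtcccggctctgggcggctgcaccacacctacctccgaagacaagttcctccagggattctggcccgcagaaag
Orc3: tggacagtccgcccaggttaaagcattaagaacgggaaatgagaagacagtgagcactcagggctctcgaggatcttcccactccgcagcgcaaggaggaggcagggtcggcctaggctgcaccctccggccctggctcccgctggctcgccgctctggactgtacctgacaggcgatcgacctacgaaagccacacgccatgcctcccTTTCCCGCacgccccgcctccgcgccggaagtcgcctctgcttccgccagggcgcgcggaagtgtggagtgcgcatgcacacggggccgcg
Pold1: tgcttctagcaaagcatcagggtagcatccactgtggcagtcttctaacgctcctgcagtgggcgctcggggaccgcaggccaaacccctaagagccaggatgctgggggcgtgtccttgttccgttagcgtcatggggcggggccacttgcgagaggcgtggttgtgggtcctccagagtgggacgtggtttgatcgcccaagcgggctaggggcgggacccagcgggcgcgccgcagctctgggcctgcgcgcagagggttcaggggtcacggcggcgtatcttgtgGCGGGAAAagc
Rfc4: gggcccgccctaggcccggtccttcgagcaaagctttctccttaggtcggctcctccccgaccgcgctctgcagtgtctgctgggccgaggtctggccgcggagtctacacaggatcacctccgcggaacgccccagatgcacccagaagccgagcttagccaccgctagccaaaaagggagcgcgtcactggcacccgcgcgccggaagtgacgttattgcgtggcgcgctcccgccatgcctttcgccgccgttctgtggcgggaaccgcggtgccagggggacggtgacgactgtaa
The Orc3 window held TTTCCCGC at 41 bases before the start, and the Pold1 window held it on the opposite strand 39 bases after the start. The Tk1 and Rfc4 windows held none of the 3 motifs.

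A promoter window was found for 40 of the 48 genes, and 13 of these (32.5%) held at least 1 of the 2 E2F forms, against 372 of 10717 tested genes (3.47%) with a window. TTTCCCGC was found in 8 and TTTGGCGC in 6 of the 40, against 2.43% and 1.09% of tested genes. The CCAAT box was found in 24 of the 40, against 43.4% of tested genes. Over all 32851 windows of the same length the shares were 1.56% for either E2F form and 37.4% for CCAAT. Of the 21 genes called lower with a window 8 held an E2F form, as did 5 of the 18 not called, and Rfc4 held none. These are matches of letters, given with no test. The matches are given with up to 6 bases on each side, turned so that the form reads left to right, in capitals. Where a gene has more than 1, the distance of the match from the start site is given in bases.
Orc3: cctcccTTTCCCGCacgccc
Cdc6: aggcgaTTTCCCGCtctcca
Cdt1: taccttTTTGGCGCcatggc
Mcm3 (19): ccaagtTTTCCCGCcacgga
Mcm3 (38): ggaagtTTTGGCGCcaag
Mcm5: ggacgtTTTGGCGCgaaagt
Mcm6 (-110): tatgctTTTGGCGCgaaaag
Mcm6 (-47): gacgggTTTGGCGCgaagta
Mcm7: accctgTTTCCCGCggttcg
Gins3: actcgcTTTCCCGCgccgca
Rfc3: tagagtTTTCCCGCgagcgc
Pola1: agtgcaTTTGGCGCcctgtg
Pole2: tcgcgaTTTGGCGCcaccgc
Pold1: gctTTTCCCGCcacaag
Pold3: aagctgTTTCCCGCcggcgg
The matched genes span origin recognition, licensing, the helicase and the polymerases, and both called and uncalled genes are among them.

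After IAA, 26 of the 48 genes were lower and 1 was higher at an adjusted p under 0.05 in limma, and 21 did not pass. Over all 14928 genes tested the shares called were 28.9% lower and 11.1% higher, so the members were called lower more often (54.2%) and higher less often (2.08%) than genes at large, without a test of that difference. The members are well expressed, with mean normalised read counts from 89.3 to 5875, and among the 9727 tested genes with a mean of at least 100 the share called lower was 36.1% and the share called higher 13.9%. The median level was 1126.8 in the members and 230.8 in the 14919 tested genes with an annotation match. No share was computed for genes at the members' level, so the part of level in their share of calls was not tested. All 48 passed the filter on low values, a mean of at least 10. Their median log2 fold change was -0.15, beside -0.11 for all genes tested and -0.09 for those with a mean of at least 100. The changes were small, from -0.72 for Tk1 to 0.21 for Rfc4. In 35 genes (72.9%) both IAA libraries lay below both untreated libraries, and in 4 (8.33%) they lay above, where 45.6% and 22.5% of all tested genes did so. The 48 genes summed to 77162 and 76466 normalised reads in the IAA libraries, against 84336 and 86250 in the untreated libraries. All genes together also summed lower, to between 9240287 and 9381022 in the IAA libraries and between 9913931 and 10107567 in the untreated libraries. The 48 genes made up 0.822% and 0.827% of the IAA libraries, against 0.851% and 0.853% of the untreated libraries.

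Scaling sets how many of these small changes are called. The median over all genes was -0.11 at the deposited scaling and -0.01 with median-of-ratios factors, which set the median gene of each library equal. With those factors 15 members were lower and 6 higher (Mcm5, Pcna, Rfc3, Rfc4, Rpa2 and Tyms), beside 20.5% and 20.3% of all genes, and all 15 were among the 26. In the authors' deposited table, which rests on wider standard errors, 11 members had an adjusted p under 0.05, all lower, where 9.57% of its tested genes were lower and 2.47% higher. With voom on the recovered reads 28 members were lower and 1 higher, where 30% and 11.7% of all genes were. Those 11 were Tk1, Orc3, Pold1, Pold2, Pola1, Mcm10, Lig1, Pole, Cdt1, Rrm2 and Mcm6, and each was also lower with median-of-ratios factors. Leaving out any 1 of the 4 libraries ended every call on the rounded deposited values. On the same values without rounding, the members' median log2 fold change lay between -0.17 and -0.13 in such fits. The plot of log2 fold changes by role shows all 48 genes, and the plot against all genes shows both scalings.

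**Figure D1:**
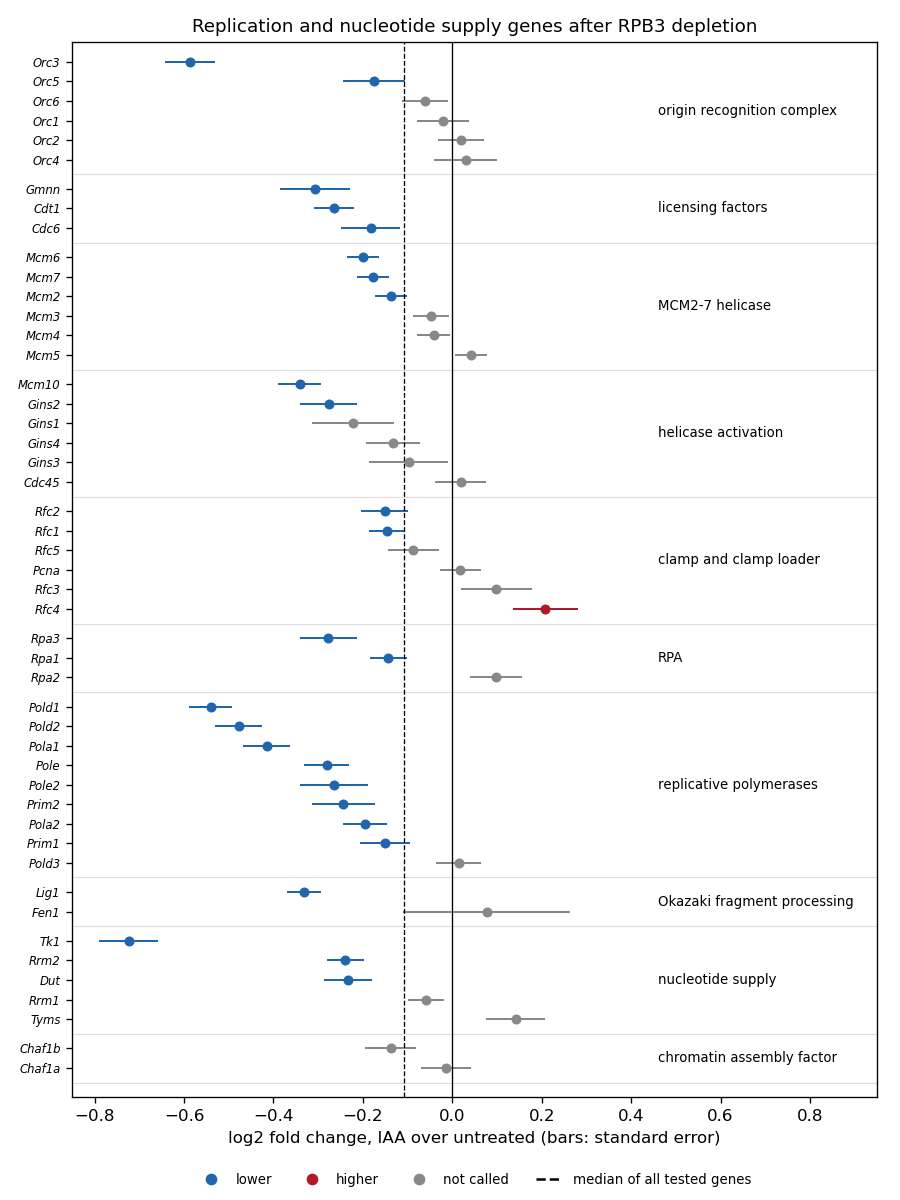
Log2 fold change of the normalised read count (IAA over untreated, horizontal axis) of the 48 genes, grouped by role, with bars of 1 standard error from limma; colour gives the call and the dashed line the median of all tested genes. Tk1, Orc3 and Pold1 lie farthest left, 8 of 9 polymerase genes are called lower and Rfc4 is the 1 gene called higher. Over all tested genes 28.9% were called lower and 11.1% higher.

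**Figure D2:**
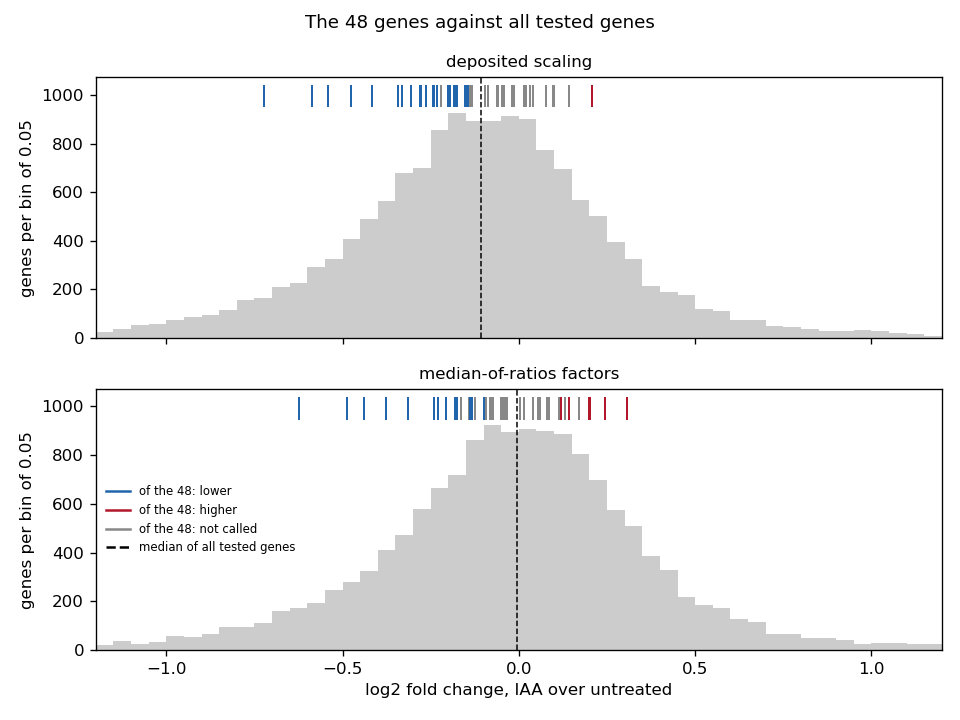
Histogram of log2 fold changes (IAA over untreated) of the 14928 tested genes in bins of 0.05, at the deposited scaling (top) and with median-of-ratios factors (bottom), with 1 tick for each of the 48 genes coloured by its call. The ticks shift to the right in the lower panel, where 15 are called lower and 6 higher.

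The counts by role that follow stand beside the 28.9% lower and 11.1% higher of all tested genes. A role holds only 2 to 9 genes, and nothing is read about a role from a count near those shares. Of the 6 genes of the origin recognition complex 2 were called lower, which is near them. Orc3, a core subunit of the complex (ENSMUSG00000040044, chromosome 4, 34570796 to 34614944, GRCm38), had 749 and 775 normalised reads in the IAA libraries, against 1135 and 1155 in the untreated libraries. The groups lay far apart compared with their replicates, and the log2 fold change was -0.59 (SE 0.06, limma adjusted p = 1.25e-07), a fall of about the same size as its value in the authors' deposited table (-0.59, SE 0.12). Orc5, an ATP-binding subunit, had 523 and 501 in the IAA libraries and 590 and 567 in the untreated libraries. It only just passed (-0.18, SE 0.07, limma adjusted p = 0.0495) and did not pass with median-of-ratios factors, with the replicate number as a block (adjusted p = 0.0633) or in the authors' deposited table. Orc1, the ATPase subunit that drives loading, had 829 and 828 in the IAA libraries and 840 and 841 in the untreated libraries (-0.02, SE 0.06). Orc2, Orc4 and Orc6 had log2 fold changes of 0.02, 0.03 and -0.06 (SE 0.05 to 0.07). None of these 4 passed, and Orc1 and Orc6 changed sign with median-of-ratios factors. Of the exon bases of Orc2, 29.8% also belong to Nif3l1 on the other strand, and whether the counts used strand is not given in the sources used here.

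All 3 licensing factors were lower. Cdt1, which brings the helicase to origins, had 2163 and 2101 in the IAA libraries, against 2636 and 2485 in the untreated libraries (-0.26, SE 0.04, limma adjusted p = 9.51e-05). Gmnn, which encodes geminin, the inhibitor of Cdt1, had 565 and 601 in the IAA libraries and 655 and 794 in the untreated libraries (-0.31, SE 0.08, limma adjusted p = 0.00390). Its untreated libraries differed from each other by more than its groups did at their nearest, and without untreated replicate 2 it was not called on unrounded values. Cdc6, the ATPase that works with the origin complex, had 686 and 654 in the IAA libraries and 722 and 801 in the untreated libraries (-0.18, SE 0.07, limma adjusted p = 0.0346), and it lost its call with median-of-ratios factors and, on unrounded values, without IAA replicate 2 or untreated replicate 2. The activator and its inhibitor thus lay lower by similar amounts.

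Of the 6 helicase genes 3 were called lower, by small amounts. Mcm6 had 4078 and 4182 in the IAA libraries, against 4678 and 4808 in the untreated libraries (-0.20, SE 0.04, limma adjusted p = 2.20e-04), and Mcm7 had 4359 and 4387, against 4986 and 4905 (-0.18, SE 0.04). Mcm2 had 5657 and 5533 in the IAA libraries and 5995 and 6314 in the untreated libraries (-0.14, SE 0.04, limma adjusted p = 0.00453). Of these 3 called genes, Mcm6 alone remained called with median-of-ratios factors. Mcm3 (-0.05), Mcm4 (-0.04) and Mcm5 (0.04) did not pass, each with SE 0.04, Mcm3 and Mcm4 changed sign with median-of-ratios factors, and Mcm5 was called higher there (0.14). Mcm5 had 6099 and 5806 in the IAA libraries and 5693 and 5875 in the untreated libraries, so its groups overlapped. Per kilobase of the main transcript the 6 levels ran from 1028 (Mcm4) to 1761 (Mcm5) normalised reads in the IAA libraries and from 1058 (Mcm4) to 1826 (Mcm2) in the untreated libraries. Mcm7 shares 12.6% of its exon bases with neighbours, among them Ap4m1 and Cops6 on the other strand.

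Of the 6 factors that activate the helicase 2, Mcm10 and Gins2, were lower, near the 28.9% of all tested genes. Mcm10, which helps the helicase start to unwind, had 1303 and 1336 in the IAA libraries, against 1667 and 1677 in the untreated libraries (-0.34, SE 0.05, limma adjusted p = 1.30e-05). Gins2 had 801 and 778 in the IAA libraries and 905 and 1011 in the untreated libraries (-0.28, SE 0.06, limma adjusted p = 0.00153), but 67.3% of its exon bases also lie in Gse1 on the other strand. The other GINS subunits did not pass, with Gins1 at -0.22 (SE 0.09, limma adjusted p = 0.0598), Gins4 at -0.13 and Gins3 at -0.10. In each of these 3 both IAA libraries were below both untreated ones, as in 45.6% of all tested genes. Cdc45, the third part of the active helicase, had 852 and 874 in the IAA libraries and 844 and 860 in the untreated libraries (0.02, SE 0.06).

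The polymerase genes were the group with the most calls, 8 of 9, all lower. Pold1, the catalytic subunit of polymerase delta (ENSMUSG00000038644, chromosome 7, 44532746 to 44548849, GRCm38), had 1299 and 1305 in the IAA libraries, against 1941 and 1849 in the untreated libraries. This log2 difference, -0.54 (SE 0.05, limma adjusted p = 5.13e-08), was larger than the spread between replicates. Pold2, the subunit that holds the enzyme together, had 978 and 1012 in the IAA libraries and 1388 and 1383 in the untreated libraries (-0.48, SE 0.05, limma adjusted p = 5.90e-07). Pold3, an accessory subunit that binds PCNA, had 1383 and 1386 in the IAA libraries and 1343 and 1400 in the untreated libraries (0.01, SE 0.05). The 3 delta genes therefore differed in their values, with the 2 core subunits lower and Pold3 close to 0, a difference between genes that was not tested and whose order was the same with median-of-ratios factors (-0.44, -0.38 and 0.11).

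Polymerase alpha and primase start every new strand. Pola1, the catalytic subunit and the longest gene of the 48 (chromosome X, 93304767 to 93632155), had 1032 and 1089 in the IAA libraries, against 1431 and 1397 in the untreated libraries (-0.42, SE 0.05, limma adjusted p = 3.57e-06). Its partner Pola2 had -0.19 (SE 0.05), and the primase subunits Prim1 and Prim2 had -0.15 (SE 0.06) and -0.24 (SE 0.07). Those 3 were called lower but not with median-of-ratios factors. Prim1 also lost its call with the replicate number as a block (adjusted p = 0.0554). Pole, the catalytic subunit of the leading-strand polymerase epsilon, had 1829 and 1966 in the IAA libraries and 2207 and 2406 in the untreated libraries (-0.28, SE 0.05, limma adjusted p = 1.72e-04). Pole2 had 407 and 394 in the IAA libraries and 499 and 464 in the untreated libraries (-0.26, SE 0.08), and was not called with median-of-ratios factors. The 3 catalytic subunits Pold1, Pola1 and Pole were called at both scalings and in the authors' deposited table.

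**Figure D3:**
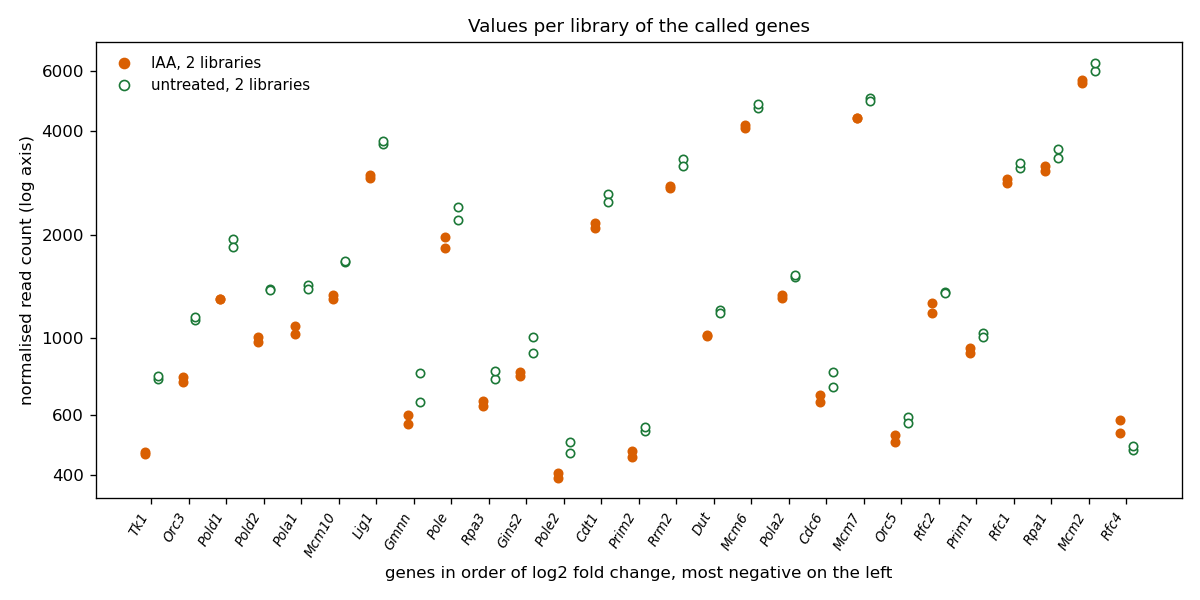
Normalised read counts per library (log axis) of the 27 called genes, with IAA libraries as filled points and untreated libraries as open points to their right, in order of log2 fold change. In the 26 genes called lower both IAA libraries lie below both untreated libraries, by a wide gap in Tk1, Orc3, Pold1 and Pold2. Rfc4 at the right end is the reverse. Of all tested genes 45.6% lie below in this way and 22.5% above.

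The sliding clamp and its loader were mixed, with 2 of 6 genes lower and 1 higher, near the 28.9% and 11.1% of all tested genes. Pcna had 2836 and 2633 in the IAA libraries and 2623 and 2778 in the untreated libraries (0.02, SE 0.05), with overlapping groups, and it passed as higher under median-of-ratios scaling (0.12). Per kilobase its level was 1801 normalised reads in the IAA libraries and 1779 in the untreated libraries. Rfc1, the large subunit of the loader, had 2839 and 2898 in the IAA libraries and 3124 and 3226 in the untreated libraries (-0.15, SE 0.04, limma adjusted p = 0.00655), and Rfc2 had 1265 and 1183, against 1366 and 1352 (-0.15, SE 0.05). Both lost their calls with median-of-ratios factors. Rfc4 (chromosome 16, 23113943 to 23127737) had 579 and 531 in the IAA libraries, against 474 and 486 in the untreated libraries. This log2 difference, 0.21 (SE 0.07, limma adjusted p = 0.0274), was also called with median-of-ratios factors (0.31), but the authors' deposited table gives it an adjusted p of 0.465, and on unrounded values the call was lost without IAA replicate 1 or without untreated replicate 1. Of its exon bases 12.7% lie in Eif4a2 on the other strand. Rfc3 (0.10, SE 0.08) and Rfc5 (-0.09, SE 0.06) did not pass, while under median-of-ratios scaling Rfc5 changed sign and Rfc3 passed as higher.

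RPA, the trimer that coats single-stranded DNA, had 2 of 3 genes called lower. Rpa3, the smallest subunit, had 638 and 658 in the IAA libraries, against 765 and 806 in the untreated libraries (-0.28, SE 0.06, limma adjusted p = 0.00154), and kept its call with median-of-ratios factors. Rpa1, the large DNA-binding subunit, had 3167 and 3063 in the IAA libraries and 3340 and 3543 in the untreated libraries (-0.14, SE 0.04), and was not called there. Rpa2 had 1117 and 1069 in the IAA libraries and 975 and 1069 in the untreated libraries (0.10, SE 0.06), did not pass at the deposited scaling and passed as higher under median-of-ratios scaling (0.20).

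Lig1, the ligase that seals Okazaki fragments, had 2920 and 2981 in the IAA libraries, against 3681 and 3745 in the untreated libraries (-0.33, SE 0.04, limma adjusted p = 1.31e-06). Fen1, the flap nuclease that acts just before it, had 90 and 91 in the IAA libraries and 68 and 108 in the untreated libraries (0.08, SE 0.19). Its untreated libraries lie on both sides of the IAA libraries, and a change of the size seen in Lig1 was not detectable with this error. Of the exon bases of Fen1, 84.2% are shared with genes on the other strand, Tmem258 and Gm10143, and its level per kilobase of 38.1 in the IAA libraries and 37.1 in the untreated libraries was the lowest of the 48. The part of that overlap in the count was not tested. The chromatin assembly factor genes Chaf1a (-0.01, SE 0.06) and Chaf1b (-0.14, SE 0.06, limma adjusted p = 0.0630), which deposit histones behind the fork, did not pass. Chaf1a shares 52.5% of its exon bases with Ubxn6 on the other strand and changed sign with median-of-ratios factors.

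Nucleotide supply had 3 of 5 genes called lower, among them Tk1, the most negative of the 48. Tk1, the cytosolic kinase that salvages thymidine (ENSMUSG00000025574, chromosome 11, 117815526 to 117826092, GRCm38), had 469 and 461 in the IAA libraries, against 761 and 776 in the untreated libraries. It fell by 39.4% (log2 fold change -0.72, SE 0.07, limma adjusted p = 6.26e-08), and 6.32% of all tested genes had a more negative value. Rrm2, the small subunit of ribonucleotide reductase that is made anew in each S phase, had 2734 and 2776 in the IAA libraries and 3332 and 3174 in the untreated libraries (-0.24, SE 0.04, limma adjusted p = 1.08e-04). Rrm1, the large subunit, had 2819 and 2860 in the IAA libraries and 2919 and 3000 in the untreated libraries (-0.06, SE 0.04), did not pass and changed sign with median-of-ratios factors. Dut, which removes dUTP and yields the precursor of thymidylate, had 1016 and 1024 in the IAA libraries and 1209 and 1189 in the untreated libraries (-0.23, SE 0.05, limma adjusted p = 0.00152). Tyms, thymidylate synthase, had 669 and 661 in the IAA libraries and 583 and 623 in the untreated libraries (0.14, SE 0.07, limma adjusted p = 0.0946), with groups that do not overlap, and passed as higher under median-of-ratios scaling (0.24). Of all tested genes 22.5% had both IAA libraries above both untreated libraries. The salvage kinase and the synthase, which make the same nucleotide, thus lay on opposite sides of their controls, though Tyms was not called. The difference between these genes was not tested.

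The size of the change was also set beside how the genes are built. Across the 48 genes Spearman's rho between log2 fold change and gene span was -0.05, with transcript length 0.03, with the number of exons -0.19 and with mean level -0.09. Across 14919 tested genes with an annotation match the same values were -0.05, 0.06, -0.14 and 0.07. The 26 genes called lower had a median span of 18.3 kb and the 21 not called 17.3 kb. Genes are not independent replicates, and these values share the same 4 libraries.

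Further genes of replication and nucleotide synthesis were described from lists by function. Their counts stand beside the 28.9% lower and 11.1% higher of all tested genes. Purine synthesis and salvage had 12 of 14 genes lower and none higher, with a median log2 fold change of -0.32, beside the -0.11 of all tested genes. Prps2, which makes the ribose donor, had 248 and 298 in the IAA libraries and 418 and 430 in the untreated libraries (-0.64), and the pathway enzymes Adsl (-0.53) and Paics (-0.49) followed. Under median-of-ratios scaling 11 were still lower and none was higher, beside 20.5% and 20.3% of all tested genes. In pyrimidine synthesis 4 of 7 were lower, led by Ctps2 (-0.57), Dhodh (-0.37) and Cad (-0.36), the enzyme of the first steps. Umps (0.27), which makes UMP, and Uck2 (0.12) were the 2 higher, named after their values were seen. Other enzymes of deoxynucleotide supply had 8 of 14 lower and 1 higher, with a median of -0.23. Dctd, which turns dCMP into dUMP, had 553 and 582 in the IAA libraries and 851 and 882 in the untreated libraries (-0.61). Dguok and Tk2, the mitochondrial salvage kinases, had -0.65 and -0.41. All genes named with a value in this paragraph were called in limma, with adjusted p from 2.82e-09 to 0.0352.

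Regulators of the fork were mixed, and their counts stand beside the 28.9% lower and 11.1% higher of all tested genes. At the deposited scaling the counts of the checkpoint and origin firing lists are near those shares, and nothing is read from them. The S phase checkpoint had 3 of 9 lower and none higher there. Under median-of-ratios scaling 5 of its genes passed as higher, above the 20.3% of all tested genes, a difference that was not tested. The 3 lower genes kept their calls at that scaling, beside 20.5% of all tested genes. At the deposited scaling the median log2 fold change of the checkpoint was 0.09, above the -0.11 of all tested genes. Atr, the kinase at its head, had 610 and 606 in the IAA libraries, against 1205 and 1074 in the untreated libraries (-0.90, SE 0.06, limma adjusted p = 2.56e-09), a larger change than that of any of the 48 genes. Its effector kinase Chek1 (-0.27) and the clamp subunit Rad1 (-0.28) were also lower. Origin firing regulators had 4 of 12 lower and 2 higher (median -0.08), with Topbp1 (-0.42), an activator of Atr, Dtl (-0.25), which targets Cdt1 for degradation, and Cdc7 (-0.18), the kinase that triggers firing, as the widest. Cdc7 was not called with median-of-ratios factors. Fork accessory factors had 7 of 17 lower and 1 higher (median -0.15), among them the clamp loader subunit Dscc1 (-0.87) at a low level, with 59 and 60 in the IAA libraries and 99 and 121 in the untreated libraries, the fork protector Tipin (-0.47) and Wdhd1 (-0.32). Genes of chromatin replication had 5 of 11 lower and 2 higher (median -0.08), with Uhrf1 (-0.44) and Dnmt1 (-0.30), which copy DNA methylation, lower and the histone chaperone Asf1a higher (0.37).

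**Figure D4:**
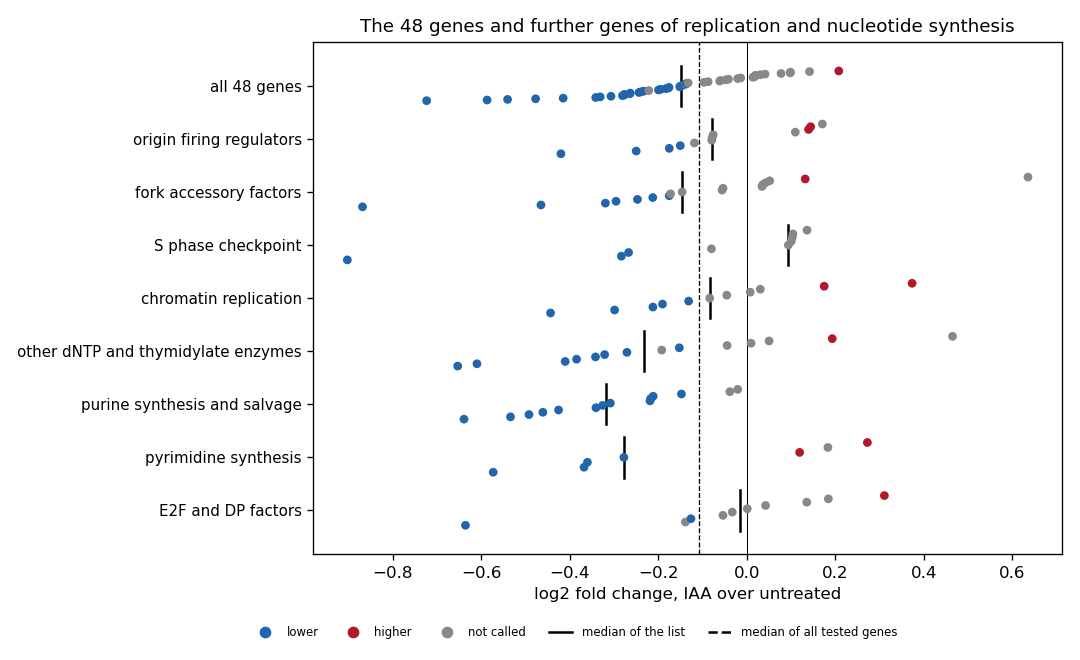
Log2 fold change (IAA over untreated) of each tested gene, 1 point per gene, for the 48 genes and for 8 further lists, with a bar at the median of each list, a dashed line at the median of all tested genes and colour by call. Purine synthesis has 12 of 14 points called lower, while the E2F list has 2 lower, 1 higher and 7 not called. Over all tested genes 28.9% were called lower and 11.1% higher, near the counts of the E2F list.

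E2F and DP factors were mostly not called. Their counts are near the 28.9% lower and 11.1% higher of all tested genes, and nothing is read from them about this list. Of 10 tested, E2f2 (-0.64) and E2f4 (-0.13) were lower and E2f6, a repressor, was higher (0.31). E2f2 had 124 and 132 in the IAA libraries and 184 and 216 in the untreated libraries. E2f4 lost its call with median-of-ratios factors. There 3 factors of the list were higher and 1 lower, beside 20.3% and 20.5% of all tested genes.

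The whole recovered reads summed to between 8779401 and 9194432 in the IAA libraries and between 8724737 and 8794680 in the untreated libraries. Polr2c mRNA had 3242 and 3158 in the IAA libraries and 2726 and 2885 in the untreated libraries (0.19, SE 0.04), which does not check the degraded protein. Stem cell markers were expressed in every library, and the 12 listed summed to between 69109 and 71694 in the IAA libraries and between 66754 and 68467 in the untreated libraries. They were not of 1 direction, with Klf4 (0.52) and Klf2 (0.43) higher and Dppa5a (-0.36) lower. Of 10 feeder fibroblast markers, 6 were in the table. They summed to between 391 and 399 in the IAA libraries and between 459 and 526 in the untreated libraries. Of the 4 tested, Thy1 (-0.78) and Col1a1 (-0.76) were called lower, where 28.9% of all tested genes were. The 2 not called were Pdgfra (0.34) and Pdgfrb (-0.10), named after their values were seen. Col3a1, a feeder marker named after its values were seen, was listed at 0 and 2 in the IAA libraries and at 1 and 0 in the untreated libraries. Markers of differentiated lineages summed to between 930 and 933 in the IAA libraries and between 928 and 949 in the untreated libraries, and of the 7 tested Eomes alone was called (0.29). Their part in the results was not tested. In bulk RNA, fewer cells in S phase and less RNA per cell cannot be told apart, and no library measured the cell cycle.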

How the data were processed

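Poly(A) RNA libraries of the degron line, 2 IAA and 2 untreated, were grouped by their labels. Per the submitters' processing notes, which name no roles, the tools were STAR, Bowtie2, cutadapt 1.18, SAMtools, featureCounts, DESeq2 and deepTools, with mm10 and dm6 as builds. Annotation and strand setting: not given in the sources used here. Each library has 1 column, in which the authors deposited a score: the read count over a size factor (0.98 and 0.95 for IAA, 0.88 and 0.87 for untreated), rounded. This was inferred from the numbers, and the text calls such values normalised read counts or normalised reads. The mean column the authors deposited is a signal (the mean before rounding), from which whole reads were recovered for 100% of genes (tolerance 0.001). What the factors rest on, mouse reads or the Drosophila spike-in of the design text, is not stated. Over their geometric mean they were 1.07 and 1.03 for IAA and 0.96 and 0.95 for untreated. Median-of-ratios factors of the recovered reads differed from these, at 1.04 and 0.99 for IAA and 0.99 and 0.99 for untreated. Beside these the authors deposited their own test, by its column names a DESeq2 Wald test: log2 fold change and standard error, the statistic (a score), p-values raw and adjusted, and a text label.

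Genes with a mean of at least 10 (14928 of 30282) were tested in R 4.3.3 by limma 3.58.1 after log2(value + 1), with an empirical Bayes trend and Benjamini-Hochberg adjustment over all of them. The threshold for a call was an adjusted p of 0.05. This scale understates changes of low genes. The library columns are scaled and rounded, so no count model was run on them. None was run on the recovered reads either, though these were used for voom and the other scalings. The fit was tested on simulated data. Groups hold 2 libraries each, which the labels do not tie to separate cultures, so the spread behind each p-value is that of these libraries and may be technical. Levels per kilobase use the principal protein-coding transcript of GENCODE M21 (GRCm38), and exon overlaps use all its exons. All 48 genes are named. Of each further list the 3 called genes with the largest change are named, and other names are marked as chosen later. The members and lists were chosen with earlier results of these data known. Alternatives were other thresholds, filters, pseudocounts and scalings, voom on recovered reads, the authors' tests, a replicate block and each library left out, and, added after seeing the data, unrounded values alone, with no filter and with each library left out.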

Additional observations from a re-analysis of the deposited data

How the results depend on the processing

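Calls depended on scaling, rounding and the error model, while the direction of the called genes did not. In the alternatives run, the genes whose log2 fold change changed sign were all among the 21 not called. The called genes were picked in the same 4 libraries for a change large beside its error, so their kept direction is no separate support. Of all 30282 genes, 638 were lower and 179 higher with no filter on low values, and 1919 and 623 with no filter on unrounded values. By the authors' adjusted p 1100 of 11495 genes were lower and 284 higher. Of the 14928 tested genes, 1037 were higher at an adjusted p under 0.01 and 2072 at 0.1. Under median-of-ratios scaling 3054 of these were lower and 3037 higher, and with library totals 2985 and 3083. Of the 48 genes, 6 were lower and 0 higher with no filter, 14 and 0 with no filter on unrounded values, 15 and 6 with median-of-ratios factors, 15 and 8 with library totals, and 11 and 0 by the authors' adjusted p. The number higher was 0 at an adjusted p under 0.01 and 2 at 0.1. The members' median was -0.0477 with median-of-ratios factors and -0.0439 with library totals.

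Leaving out 1 library at a time gave 0 to 0 calls in either direction on rounded values. There 361 to 372 genes had replicates that tie after rounding, and limma's prior degrees of freedom fell to between 1.55 and 1.59, against 18.03 with all libraries. On unrounded values the same fits called 3471 to 3939 genes lower and 1146 to 1608 higher, and 18 to 25 members lower and 0 to 2 higher. A lone library is assumed there to vary like the other group. With all libraries the prior degrees of freedom were 283.13 on unrounded values, so a gene's own replicate spread weighed little in that fit. This value was not computed for the unrounded fits that leave 1 library out. The deviations of replicate 1 from its group mean had a correlation of 0.002 between the groups over all tested genes. This does not show that the libraries are unpaired, because a pairing seen in some genes only could be missed. With the replicate number as a block 4311 genes were lower and 1647 higher, 24 and 1 of them members, and Orc5 and Prim1 lost their calls.

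With median-of-ratios factors and with library totals, the sign changed in Orc1 (0.0798 and 0.0835), Orc6 (0.0397 and 0.0435), Mcm3 (0.0532 and 0.057), Mcm4 (0.0592 and 0.0629), Gins3 (0.0031 and 0.0069), Rfc5 (0.0132 and 0.017), Rrm1 (0.0411 and 0.0449) and Chaf1a (0.0859 and 0.0896). With 1 library left out, the sign changed in 6 genes, here with their ranges on rounded and then on unrounded values: Orc2 (-0.0166 to 0.0554, and -0.016 to 0.0558), Mcm3 (-0.0973 to 0.0025, and -0.0974 to 0.0024), Pcna (-0.0359 to 0.0712, and -0.0361 to 0.0711), Pold3 (-0.0161 to 0.0439, and -0.0161 to 0.0437), Fen1 (-0.2525 to 0.4072, and -0.2585 to 0.398) and Chaf1a (-0.0684 to 0.0404, and -0.0691 to 0.0396). On unrounded values Pcna was also at -0.024 without untreated replicate 1, and Chaf1a at 0.0121 without untreated replicate 2. The cause was not tested beyond the ties above. Low counts limit the precision of Fen1 and Dscc1.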
